A study of Rattus norvegicus with 32 samples.

Results

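The genes described here lead from cytokines of the interleukin-6 family to the transcription factor STAT3. They are 5 of the 23822 genes in the deposited tables: the ligands Il6 and Lif, the receptor Osmr, the transducer Stat3 and the feedback target Socs3. They were chosen by their role in the pathway and found through the gene identifiers that the study's gene tables pair with these symbols. The identifiers are ENSRNOG00000010278 for Il6, ENSRNOG00000007002 for Lif, ENSRNOG00000033192 for Osmr, ENSRNOG00000019742 for Stat3 and ENSRNOG00000063373 for Socs3. The hippocampus of 32 Sprague Dawley rats was sequenced after polyA selection. R237H rats were heterozygous (Gfap+/R237H) for a missense mutation in the gene of glial fibrillary acidic protein, the intermediate filament of astrocytes, and model Alexander disease, while WT littermates were Gfap+/+. The mutation sits in the germline, so that every cell expressing Gfap can make the mutant protein. Rats were 21 days (P21) or 56 days (P56) old. Each group held 4 rats, apart from the P21 females, of which 5 were R237H and 3 were WT.

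Cytokines of the interleukin-6 family share the signal-transducing receptor chain gp130, encoded by Il6st, which each ligand engages together with a more specific chain. Oncostatin M binds gp130 with the chain encoded by Osmr, leukemia inhibitory factor (LIF) binds gp130 with the LIF receptor, and interleukin-6 first binds the chain encoded by Il6r. Janus kinases bound to these receptors phosphorylate STAT3, which enters the nucleus and activates genes that include Stat3 itself and Socs3, whose product then blocks gp130 and the kinases. In the brain this route is known for its part in reactive gliosis, in which astrocytes increase Gfap and Vim.

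RefSeq start-site windows on the GRCr8 build matched 4 of the 5 genes (Il6, Osmr, Stat3 and Socs3). The 250 bases upstream of the annotated start are shown for the ligand gene and for the transducer gene, since these stand at either end of the route and had the largest and the smallest increase in males at P56. Capitals mark matches to the motifs searched on both strands, which were TTCNNNGAA (the palindrome read by STAT factors), GGANTTTCC (letters found in forms of the NF-kappaB motif) and TGACGTCA (the cAMP response element). Both windows lie on the minus strand, Il6 at chr4:5894576-5894825 and Stat3 at chr10:86363360-86363609.
Il6: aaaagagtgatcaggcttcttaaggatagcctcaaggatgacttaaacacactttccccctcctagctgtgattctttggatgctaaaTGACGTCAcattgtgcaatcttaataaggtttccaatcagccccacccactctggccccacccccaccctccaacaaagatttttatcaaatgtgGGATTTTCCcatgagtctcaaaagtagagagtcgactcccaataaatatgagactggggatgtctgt
Stat3: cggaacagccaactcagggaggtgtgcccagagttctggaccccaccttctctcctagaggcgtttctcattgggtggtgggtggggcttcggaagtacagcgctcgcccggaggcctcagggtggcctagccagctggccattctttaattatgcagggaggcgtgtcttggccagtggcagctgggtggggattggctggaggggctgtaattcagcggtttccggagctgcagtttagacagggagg

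The Il6 window held the NF-kappaB letters GGATTTTCC at position -67 and the letters TGACGTCA at position -162 from the annotated start, and the matches did not overlap. Of 33469 RefSeq windows of the same 300 bases, 1.279% held GGANTTTCC, 1.829% held TGACGTCA and 8.874% held TTCNNNGAA. The windows of Osmr, Stat3 and Socs3 held none of these letters. A match of letters in such a window was not tested for binding.

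Gfap, the mutated gene, was measured first as a check on the labels. It stood at 5549 ± 1141 CPM (counts scaled to library size; SD, n = 4) in R237H males at P56 and at 784 ± 217 (SD, n = 4) in WT males, and every R237H rat was above every WT rat in each sex and age. CPM values were scaled by TMM factors over all 32 rats. They compare rats for 1 gene, while TPM values, the deposited abundances that take transcript length into account, compare genes. A library held between 21580397 and 55544871 expected counts, with a median of 46157271, and no gene of the 5 was at 0 in any rat. Il6 was the rarest, with 2 to 19 expected counts in WT rats at P56, 7 to 57 in R237H rats at P21 and 149 to 307 in R237H rats at P56. The choroid plexus transcript Ttr, encoding transthyretin, exceeded 100 TPM in 6 rats, of which 3 were WT (s66-B, R1781C and R1797C) and 3 were R237H (s70-B, s70-C and R1789B), with values from 122.7 to 5951 TPM. The fold changes at P56 and the correlations are also given without these rats. All tissue was whole hippocampus, in which more cells of a type and more RNA per cell cannot be told apart.

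The first question was whether the 5 genes were raised in R237H rats at P56, when the animals are severely affected. All 5 were increased in both sexes, from 4.41-fold for Stat3 in females to 50.5-fold for Il6 in males. Genes were counted as increased at a false discovery rate (FDR) under 0.01 in edgeR's quasi-likelihood test within each sex. By this rule 16.8% of 15097 genes tested were increased in males and 17% of 15033 in females. Without the rats over 100 TPM of Ttr all 5 were still called, with log2 fold changes of 2.15 (Stat3) to 5.41 (Il6) in males and 2.02 (Stat3) to 4.53 (Socs3) in females. In each of the 5 genes every R237H rat was above every WT rat of the same sex, which held for 24.2% of genes tested in males and 22.2% in females. Shares of such separation, here and at P21, were taken over all genes tested only.

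Il6 encodes interleukin-6, a secreted cytokine. In males at P56 the R237H rats had 3.18, 3.67, 5.04 and 9.53 CPM, and the WT rats 0.0501, 0.105, 0.12 and 0.137 CPM. In females the R237H rats had 3.51, 3.73, 5.9 and 5.91 CPM, and the WT rats 0.0897, 0.147, 0.185 and 0.438 CPM. The lowest R237H rat was thus far above the highest WT rat in each sex, and s70-B was the highest of all. The log2 fold change was 5.66 (SE 0.47, edgeR FDR 1.29e-05) in males and 4.44 (SE 0.42, edgeR FDR 1.79e-05) in females. The WT values rest on 2 to 19 expected counts, and the SE is the largest of the 5 genes in each sex.

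Lif encodes LIF, the other secreted ligand. R237H males at P56 had 12.7, 16.4, 20.9 and 31 CPM against 0.841, 0.842, 0.902 and 1 CPM in WT males. R237H females had 11.5, 15.5, 20.1 and 38.3 CPM against 1.09, 1.13, 1.15 and 1.28 CPM in WT females. WT rats lay within a narrow band, while the R237H females had a coefficient of variation of 55.3%, with s70-C highest. Lif rose by a log2 value of 4.52 (SE 0.29, edgeR FDR 2.88e-06) in males and 4.18 (SE 0.36, edgeR FDR 1.05e-05) in females.

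Osmr encodes the oncostatin M receptor chain. R237H males at P56 had 33.7, 38, 39.4 and 46.8 CPM against 1.97, 2.81, 2.93 and 3.21 CPM in WT males. R237H females had 26.6, 38, 44.7 and 46 CPM against 1.48, 2.52, 3.24 and 4.75 CPM in WT females. R237H rats were closer to each other than for the ligands, with a coefficient of variation of 13.9% in males and 22.9% in females. Osmr rose by a log2 value of 3.87 (SE 0.18, edgeR FDR 8.22e-07) in males and 3.68 (SE 0.32, edgeR FDR 1.04e-05) in females.

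Stat3, the transcription factor on which the route converges, had the highest baseline and the smallest fold change of the 5. R237H males at P56 had 199, 215, 220 and 275 CPM against 42.2, 48.5, 51.6 and 52.2 CPM in WT males. R237H females had 186, 202, 224 and 276 CPM against 46.8, 50, 51.1 and 51.5 CPM in WT females. Stat3 rose by a log2 value of 2.25 (SE 0.12, edgeR FDR 1.17e-06) in males and 2.14 (SE 0.12, edgeR FDR 7.14e-07) in females.

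Socs3 encodes the suppressor of cytokine signaling that feeds back on gp130. R237H males at P56 had 31.2, 33.2, 40.5 and 42.9 CPM against 0.351, 1.17, 1.54 and 1.57 CPM in WT males. R237H females had 26.6, 34.4, 35.4 and 55.8 CPM against 1.1, 1.15, 1.62 and 1.66 CPM in WT females. One WT male, s69-A, stood below the others for this gene, at 14 expected counts. Socs3 rose by a log2 value of 5.00 (SE 0.36, edgeR FDR 5.31e-06) in males and 4.77 (SE 0.26, edgeR FDR 6.00e-07) in females.

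**Figure D1:**
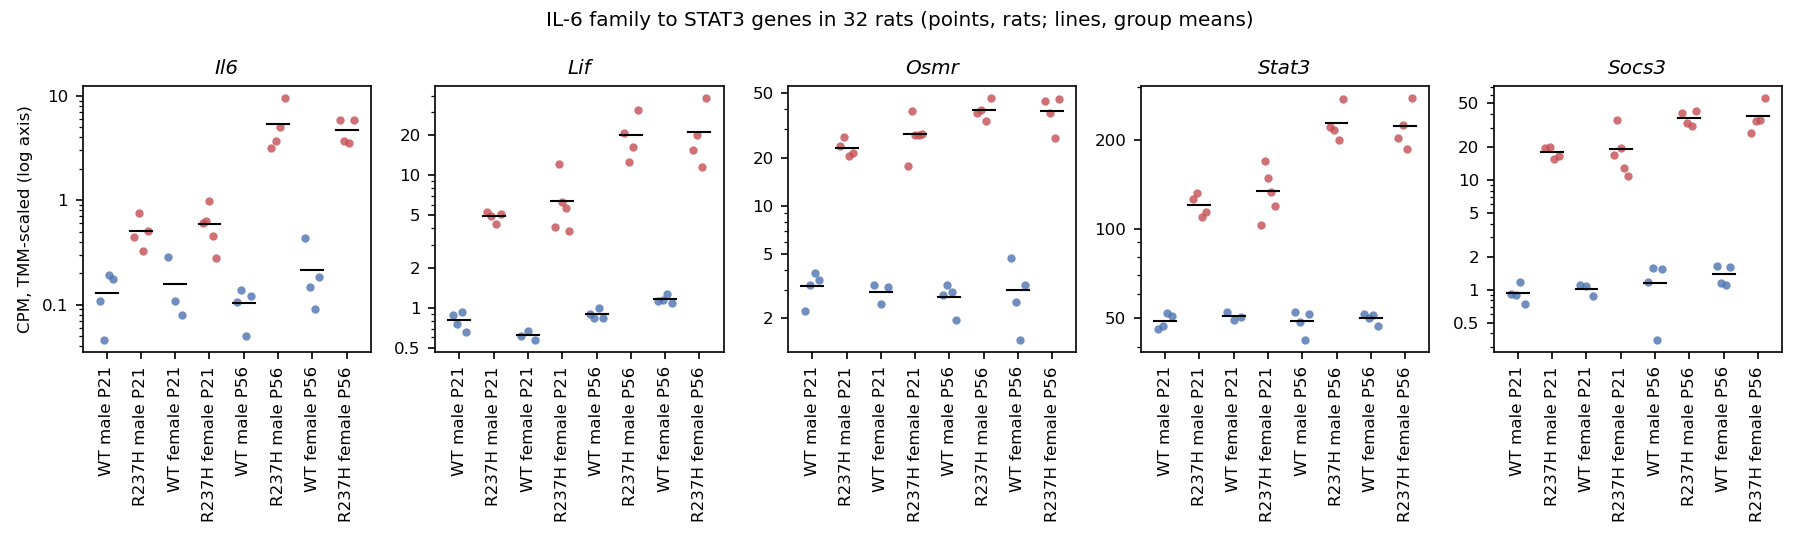
CPM (log axis) of Il6, Lif, Osmr, Stat3 and Socs3 in each of 32 rats, by genotype, sex and age; points are rats, blue for WT and red for R237H, and lines are group means. Except for Il6 in females at P21, every R237H rat sits above every WT rat of its sex and age, and the R237H groups sit higher at P56 than at P21.

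On the length-adjusted scale, Stat3 was the most abundant of the 5 in R237H males at P56, with a mean level of 99.4 ± 14.7 TPM (SD, n = 4). Socs3 followed at 24.6 ± 4.1 TPM and Osmr at 15.5 ± 2.16 TPM. Lif at 10.6 ± 4.18 TPM and Il6 at 9.85 ± 4.91 TPM came last and lay within each other's SD. In WT males the order was Stat3 at 16.3 ± 4.07 TPM, Osmr at 0.82 ± 0.257 TPM, Socs3 at 0.615 ± 0.343 TPM, Lif at 0.353 ± 0.0499 TPM and Il6 at 0.14 ± 0.0572 TPM (SD, n = 4). Osmr and Socs3 overlapped there within their SD, and so did Socs3 and Lif.

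The same comparison at P21 asked whether the genes were already raised before overt symptoms. All 5 were increased in males and 4 of 5 in females, with Il6 the exception. In females 2 of the 4 calls were lost when the number in the rats' titles was a replicate block, those of Lif (3.05, edgeR FDR 0.0153) and Stat3 (1.36, edgeR FDR 0.0105). All males at P21 shared the same number, so no block could be fitted for them, while the females carried several. Whether this narrows the spread among the males was not tested. At this age 12.4% of 14953 genes tested were increased in males and 7.06% of 15149 in females. Among genes with a symbol the shares were 53.5% in males and 32.8% in females. Every R237H rat was above every WT rat for 5 of 5 genes in males and 4 of 5 in females, against 17.1% and 14.6% of genes tested.

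Socs3 had the largest fold change at P21. R237H males had 15.6, 16.7, 19.5 and 19.8 CPM against 0.735, 0.901, 0.907 and 1.17 CPM in WT males, a log2 fold change of 4.28 (SE 0.14, edgeR FDR 1.93e-09). R237H females had 11, 12.8, 17, 19.4 and 35.2 CPM against 0.867, 1.08 and 1.11 CPM in WT females, a log2 fold change of 4.23 (SE 0.42, edgeR FDR 9.25e-05). The feedback inhibitor was thus 19.4-fold higher in males and 18.8-fold higher in females at 3 weeks of age, with R1789B the highest rat.

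Osmr and Lif were intermediate at P21. For Osmr, R237H males had 20.5, 21.2, 23.5 and 26.8 CPM against 2.22, 3.24, 3.46 and 3.81 CPM in WT males. R237H females had 17.6, 27.6, 27.6, 27.9 and 39.1 CPM against 2.45, 3.13 and 3.23 CPM. Osmr thus had a log2 fold change of 2.86 (SE 0.15, edgeR FDR 5.18e-08) in males and 3.26 (SE 0.25, edgeR FDR 2.23e-05) in females. No R237H rat came near the WT range of this receptor. For Lif, R237H males had 4.31, 4.94, 5.1 and 5.28 CPM against 0.658, 0.763, 0.885 and 0.932 CPM in WT males. R237H females had 3.8, 4.1, 5.72, 6.26 and 12.2 CPM against 0.578, 0.619 and 0.671 CPM. The male R237H rats agreed closely for this ligand, whereas R1789B stood well above the other R237H females. Lif had a log2 fold change of 2.61 (SE 0.15, edgeR FDR 1.07e-07) in males and 3.37 (SE 0.43, edgeR FDR 4.06e-04) in females.

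Stat3 had the smallest change at P21 too. R237H males had 109, 113, 126 and 132 CPM against 45.7, 46.9, 50.9 and 52.1 CPM, and R237H females had 103, 120, 133, 148 and 169 CPM against 49.4, 50.4 and 52.1 CPM. The log2 fold change was 1.30 (SE 0.07, edgeR FDR 9.04e-08) in males and 1.42 (SE 0.15, edgeR FDR 1.49e-04) in females. Even the lowest R237H rat, at 103 CPM, was far above the highest WT rat at this age.

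Il6 was rare at P21. R237H males had 0.325, 0.448, 0.503 and 0.746 CPM against 0.0462, 0.108, 0.174 and 0.191 CPM, with a log2 fold change of 1.97 (SE 0.39, edgeR FDR 0.00288). R237H females had 0.282, 0.451, 0.603, 0.63 and 0.986 CPM against 0.0788, 0.108 and 0.287 CPM, with a log2 fold change of 1.89 (SE 0.53, edgeR FDR 0.0390). The lowest R237H female lay just below the highest WT female, and the call in females was not made. The female value ran from 1.59 (without WT R1797C) to 2.64 (without WT R1790A) when 1 rat was left out, and was not called in any of these fits.

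**Figure D2:**
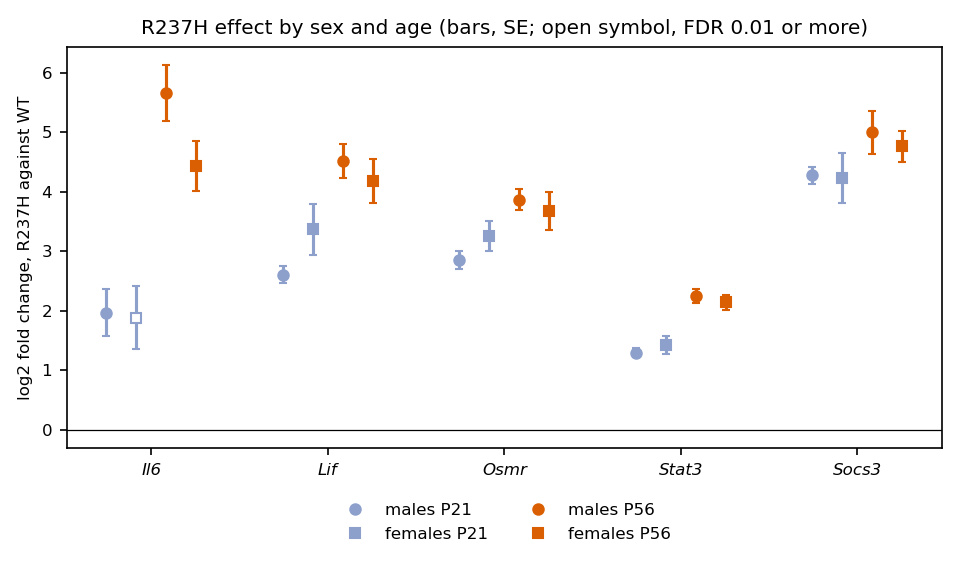
Log2 fold change of R237H against WT for the 5 genes in males (circles) and females (squares) at P21 (blue) and P56 (orange), with SE; an open symbol is an FDR of 0.01 or more. Il6 moves from 1.97 to 5.66 in males between the ages, while Socs3 moves from 4.28 to 5.00.

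Whether the R237H effect itself grew between the ages was tested as an interaction of age and genotype in the 16 rats of each sex. Since each age was its own collection of rats, an effect of age and one of collection cannot be told apart. In males 4 of 5 genes had a larger effect at P56, against 5.81% of 15370 genes tested with a larger effect. The log2 difference of the effects was 3.67 (SE 0.67, edgeR FDR 0.00136) for Il6 and 1.89 (SE 0.32, edgeR FDR 7.63e-04) for Lif. It was 0.996 (SE 0.23, edgeR FDR 0.00663) for Osmr and 0.93 (SE 0.14, edgeR FDR 3.66e-04) for Stat3. Both ligands therefore changed more between the ages than the receptor and the transducer did by these estimates, a contrast between genes that was not tested. Socs3 had a difference of 0.70 (SE 0.37, edgeR FDR 0.189) and was not called. The call of Osmr was lost when any of 10 of the 16 males was left out, with FDR values of 0.0111 to 0.0174 (R237H s65-A, s66-A, s70-B, R1781A, R1781H and R1781I, and WT s65-B, R1781D, R1781F and R1781G), and when all 32 rats were fitted together (FDR 0.0396).

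In females the same 5 estimates were positive, and 0 passed the threshold in edgeR's quasi-likelihood test, against 1.49% of 15504 genes tested. Stat3 (0.73, SE 0.19, edgeR FDR 0.0291) and Il6 (2.56, SE 0.72, edgeR FDR 0.0399) came closest, and these are the 2 of 5 with an unadjusted p under 0.05. Both were called by the likelihood-ratio test. Lif (0.82, edgeR FDR 0.437), Socs3 (0.54, edgeR FDR 0.562) and Osmr (0.42, edgeR FDR 0.597) were farther from it. Without R1789B, the R237H female highest in 4 of the 5 genes at P21, Stat3 was called (0.82, edgeR FDR 0.00938).

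Mean levels were set side by side as a description. Between P21 and P56 the mean CPM of Il6 in R237H rats rose 10.6-fold in males and 8.07-fold in females, and that of Lif 4.13-fold and 3.33-fold. Socs3 was 2.06-fold and 1.99-fold higher at P56, Stat3 1.89-fold and 1.65-fold, and Osmr 1.72-fold and 1.39-fold. In WT rats the same ratios ran from 0.794 to 1.358 for Il6, from 0.858 to 1.021 for Osmr and from 0.984 to 0.994 for Stat3. WT Lif was 1.11-fold higher at P56 in males and 1.86-fold higher in females, and WT Socs3 1.25-fold and 1.36-fold.

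Sex was compared by the interaction of sex and genotype in the 16 rats of each age. At P21 all males shared the same number in their titles and no female carried it, so sex and number cannot be told apart. None of the 5 genes passed the threshold at P56 or P21 in edgeR's quasi-likelihood test or its likelihood-ratio test, nor did any of 15419 and 15361 genes tested (0% of them). At an unadjusted p under 0.05 there were 310 genes at P56 and 458 at P21 by the quasi-likelihood test, with none of the 5 among them. The widest difference at P56 was that of Il6, whose effect was lower in females by a log2 value of -1.18 (95% interval -2.50 to 0.13). At P21 it was that of Lif, higher in females by 0.76 (95% interval -0.11 to 1.63). For Stat3 the interval was narrow, -0.42 to 0.27 at P56 and -0.21 to 0.44 at P21.

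The wider pathway was described from 5 lists of ligands, receptors, kinases and STAT factors, inhibitors, and STAT3 target genes. Of 75 listed genes, 39 had an identifier, because symbols were taken from gene tables sorted by FDR that cover 13.807% of all identifiers. Genes with a symbol are thus selected for change on these same samples, and the counts are not independent evidence of direction. The 39 include the 5 genes themselves and Gfap, so the counts and medians are not of other genes only. At P56, both sexes had 33 of the 39 genes increased and 1 decreased. At P21, males had 35 increased and 1 decreased, and females had 22 increased and 0 decreased by the quasi-likelihood test, with 1 lower at an unadjusted p under 0.05 and 1 decreased by the likelihood-ratio test and by DESeq2. Over all genes tested, 11.1% were decreased in males and 11.1% in females at P56, and 4.82% and 0.753% at P21. Among all genes with a symbol, 57.5%, 59.9%, 53.5% and 32.8% were increased, taking P56 before P21 and males before females. The median log2 fold change of the 39 was 2.22, 2.14, 1.24 and 1.42 in the same order, beside -0.01, -0.03, -0.01 and -0.01 over all genes tested.

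Among the 6 ligand genes with an identifier, 5 were increased in the P56 comparisons and in P21 males, and 2 in P21 females. Osm, which encodes oncostatin M, the ligand of the Osmr chain, had log2 fold changes of 2.22 (SE 0.30) in males and 2.19 (SE 0.33) in females at P56 and 1.67 (SE 0.32) in males at P21. Its value of 1.46 (SE 0.46, edgeR FDR 0.0622) in females at P21 was not called. Osm stayed rare, at 1.24 ± 0.237 CPM in R237H males at P56 against 0.267 ± 0.0748 in WT males (SD, n = 4). Cntf, encoding ciliary neurotrophic factor, was increased in all 4 comparisons, by log2 values of 2.55, 1.97, 1.24 and 1.65 in males and females at P56 and then at P21. Clcf1, encoding cardiotrophin-like cytokine factor, was increased by 1.89 and 2.78 at P56 and by 0.99 in males at P21, and had a value of 0.999 (edgeR FDR 0.0369) in females at P21.

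Of the receptor genes, 3 of 8 had an identifier. Il6st, encoding gp130, was increased in all 4 comparisons by log2 values of 0.74, 0.63, 0.69 and 0.66, from 140 ± 12.9 CPM in WT males at P56 to 229 ± 10.1 in R237H males (SD, n = 4). The effect on the shared chain differed between the ages by 0.02 (95% interval -0.17 to 0.22) in males and -0.03 (95% interval -0.29 to 0.23) in females. Il6r, encoding the interleukin-6 binding chain, was increased at P21 in males (0.61, SE 0.10, edgeR FDR 5.63e-04) and females (0.88, SE 0.11, edgeR FDR 3.42e-04). At P56 it had values of 0.59 (edgeR FDR 0.0107) in males and -0.08 (edgeR FDR 0.747) in females, and was not called.

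All 6 kinase and STAT genes with an identifier were increased in the P56 comparisons and in P21 males, and only Stat3 passed in P21 females. Stat3 had the largest change of them. It was followed at P56 by Stat5a, a related STAT factor, with log2 values of 1.65 (SE 0.14) in males and 1.74 (SE 0.13) in females. Stat4, which acts in lymphocytes and myeloid cells, had 0.90 and 0.92, and Stat2, which acts in interferon signaling, had 0.70 and 0.67. In females at P21 the 5 genes other than Stat3 had values of 0.24 to 0.64.

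Of the inhibitor and phosphatase genes, 4 of 16 had an identifier. Next to Socs3, the largest change was in Ptpn6, which encodes the phosphatase SHP-1 of hematopoietic cells and microglia, with log2 values of 2.70 (SE 0.14), 2.49 (SE 0.13), 1.88 (SE 0.08) and 2.16 (SE 0.20). Ptpn2, encoding a phosphatase that acts on STAT proteins, passed the threshold at P56, with 0.95 in males and 0.80 in females, and had 0.29 (edgeR FDR 0.0396) and 0.48 (edgeR FDR 0.0107) at P21. Socs4 was increased in males at P56 (0.87, SE 0.12) and had 0.50 (edgeR FDR 0.0137) in P56 females, and 0.02 and 0.20 in P21 males and females (edgeR FDR 0.886 and 0.430).

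Of 28 listed STAT3 target genes 20 had an identifier, and these include Gfap, the mutated gene. At P56 16 of the 20 were increased in males and 17 in females, and at P21 19 and 14. Among genes with a symbol the shares increased were 57.5% and 59.9% at P56, and 53.5% and 32.8% at P21. Lcn2, encoding lipocalin-2, a secreted acute-phase protein, had the largest change of the list, with log2 values of 5.91 (SE 0.34), 5.68 (SE 0.35), 5.56 (SE 0.14) and 5.89 (SE 0.43). Its difference between the ages was 0.33 (95% interval -0.36 to 1.02, edgeR FDR 0.540) in males and -0.20 (95% interval -1.24 to 0.85, edgeR FDR 0.870) in females. Vim, encoding the intermediate filament vimentin, had 5.06, 4.71, 3.79 and 3.95. Ccnd1, encoding cyclin D1, had 2.70 and 2.69 at P56 and 1.14 and 1.31 at P21, and Mcl1, encoding an anti-apoptotic protein, had 1.70, 1.68, 0.79 and 1.08. A pair of targets named after their values were seen passed at 1 age and not the other. Cebpb, encoding a transcription factor of the acute-phase response, was increased at P21 (0.83 in males, edgeR FDR 0.00163, and 1.17 in females, edgeR FDR 0.00103) and had 0.37 (edgeR FDR 0.293) and 0.51 (edgeR FDR 0.157) at P56. Fgg, encoding fibrinogen gamma, was increased at P56 (2.97 in males, edgeR FDR 0.00716, and 3.72 in females, edgeR FDR 0.00149) and had 0.83 (edgeR FDR 0.292) and -0.32 (edgeR FDR 0.798) at P21. The interaction of age and genotype passed for neither in either sex, with edgeR FDR values of 0.305 and 0.257 for Cebpb and 0.125 and 0.0176 for Fgg in males and females.

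**Figure D3:**
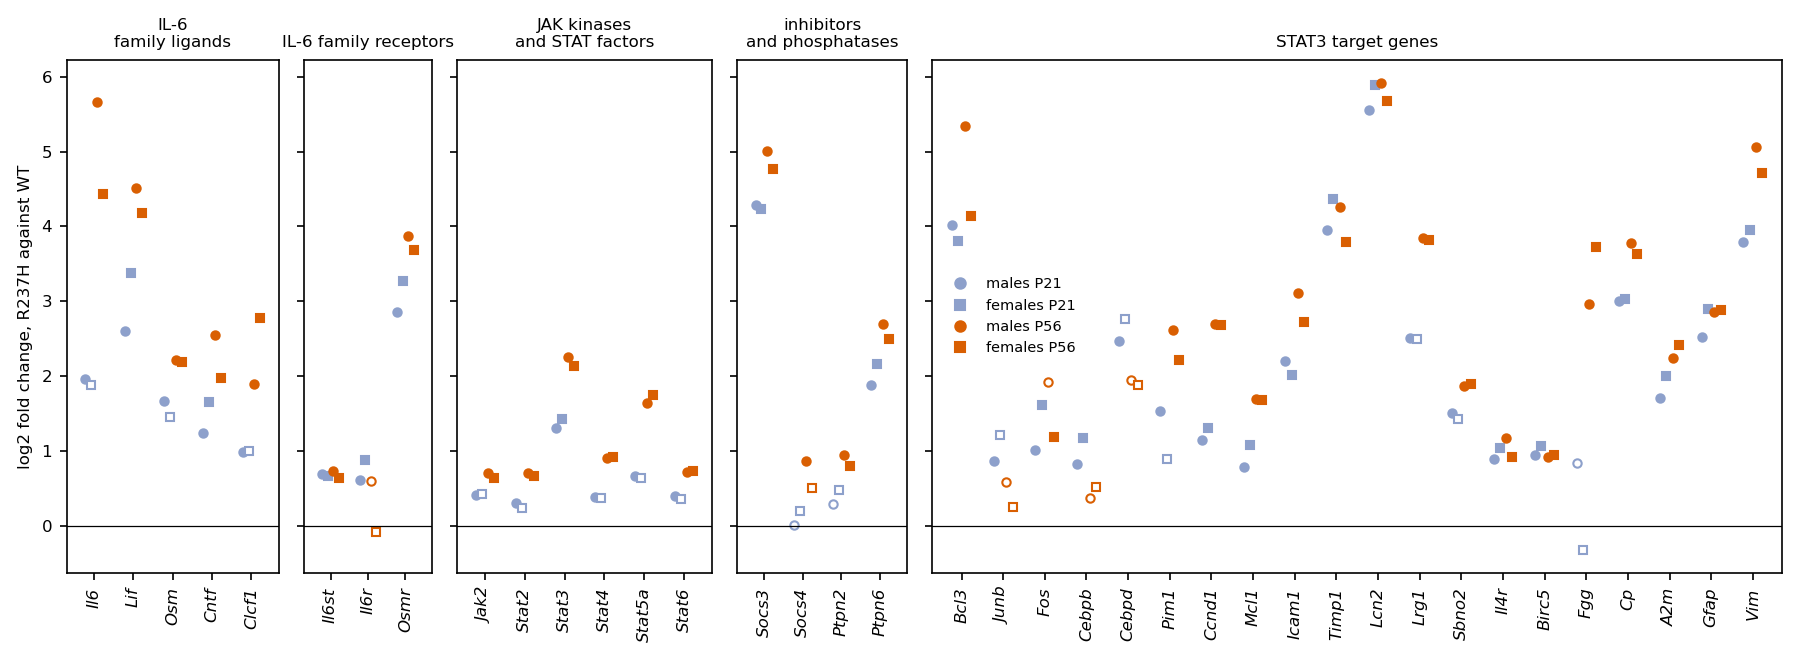
Log2 fold change of R237H against WT for the 38 listed pathway genes that were increased in at least 1 comparison, grouped by role, in males (circles) and females (squares) at P21 (blue) and P56 (orange); open symbols have an FDR of 0.01 or more. Lcn2 sits above 5 in the 4 comparisons, and Il6st and the STAT genes other than Stat3 and Stat5a sit under 1.

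Markers of other cells moved with genotype in the same tissue. All 10 microglia markers on the list had an identifier, and 8, 8, 10 and 8 of them were increased in the same order. Among genes with a symbol 57.5%, 59.9%, 53.5% and 32.8% were increased in that order, and 21.3%, 21.9%, 14.4% and 3.49% were decreased. Their summed level was 149 to 263 TPM in WT males at P56 against 844.3 to 1148 TPM in R237H males, and 233 to 251 TPM against 505.6 to 640 TPM at P21. In females it was 205 to 262 TPM against 705.9 to 1053 TPM at P56, and 216 to 223 TPM against 487 to 684 TPM at P21. The list of 10 astrocyte markers leaves out Gfap and Vim, and 7 of them had an identifier. At P56 3 of the 7 were decreased in each sex (Gjb6, Gja1 and Aldoc). At P21 4 were decreased and 2 increased (Aqp4 and Sox9) in males, and 3 were decreased in females. Of 10 listed neuron markers 3 had an identifier, and 2 of these were decreased in males at P56 (Rbfox3 and Neurod6). Of the choroid plexus markers, 0 were called by edgeR's quasi-likelihood test in any comparison, while 0 of 4, 2 of 3, 2 of 5 and 5 of 5 had an unadjusted p under 0.05. For P21 females, DESeq2 called 1 of them and the likelihood-ratio test 3, and neither called any elsewhere. Only 1 of 6 listed neutrophil and monocyte markers (Csf3r) and 1 of 8 lymphocyte markers (Cd6) had an identifier. Both were increased in all 4 comparisons, and the other markers of these lists could not be looked up. The part of these cells in the levels of the 5 genes was not tested.

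The last question was whether the genes rose together from rat to rat within R237H rats. At P56 (8 rats) the 10 pairs of the 5 genes had Pearson correlations of log2 CPM from 0.228 to 0.933, with a median of 0.67. At P21 (9 rats) they ran from 0.202 to 0.926, with a median of 0.62. WT rats had medians of 0.16 at P56 (8 rats) and 0.288 at P21 (7 rats). The WT median at P56 depended on the scale and was 0.485 on log2 TPM, beside 0.69 in R237H rats. The difference between the genotypes was not tested. Exact permutation p-values were adjusted over 60 relations, which include Gfap and both genotypes. The permutation treats rats as exchangeable, although some share the number in their titles, among them s70-B and s70-C. The library of s70-B was also the smallest at P56, with 25420919 expected counts.

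Lif and Stat3 were most closely related at P56, with r = 0.933 (exact permutation p = 0.00208, adjusted 0.0417) and Spearman's rho = 0.881 (exact permutation p = 0.00724, adjusted 0.108). Without s70-B and s70-C, the 2 rats farthest from the median of Lif, r was 0.723. At P21 Lif and Stat3 had r = 0.877 (exact permutation p = 0.00133, adjusted 0.0399), rho = 0.833 (exact permutation p = 0.00827, adjusted 0.108), with r = 0.912 without the 2 farthest rats and 0.777 without R1789B. Osmr and Stat3 at P21 had r = 0.926 (exact permutation p = 4.33e-04, adjusted 0.0260), rho = 0.817 (exact permutation p = 0.0108, adjusted 0.108), with r = 0.767 without the 2 farthest rats and 0.852 without R1789B. These were the 3 relations with an adjusted Pearson p under 0.05, and 0 passed by Spearman's rho.

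The lowest correlations at each age involved Il6. At P56 it had r = 0.228 with Socs3 (exact permutation p = 0.582, adjusted 0.776), and at P21 r = 0.202 with Osmr (exact permutation p = 0.608, adjusted 0.778). Socs3 and Osmr were also loosely related, with r = 0.299 at P56 (exact permutation p = 0.463, adjusted 0.712) and 0.465 at P21 (exact permutation p = 0.198, adjusted 0.397). The R237H rats s70-B and s70-C ranked first or second for Lif, Stat3, Socs3 and Osmr at P56, and R1789B ranked first for these 4 genes at P21. These are the 3 R237H rats over 100 TPM of Ttr. Without them the median r was 0.292 at P56 (6 rats) and 0.495 at P21 (8 rats). At P56 the sign turned for Il6 with Socs3 (r = -0.943), Osmr with Socs3 (-0.414), Il6 with Stat3 (from 0.616 to -0.323) and Il6 with Lif (from 0.595 to -0.068). At P21 it turned for Osmr with Socs3 (-0.237), while Il6 with Osmr had 0.098. In WT rats at P56 the median without s66-B was 0.159 (7 rats), and WT rats at P21 were too few (5 rats). The WT male s66-B, at 5951 TPM of Ttr, had 0.842 CPM of Lif and 48.5 CPM of Stat3, within the range of the other WT males, and was the highest of them by a small margin for Il6, Osmr and Socs3.

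**Figure D4:**
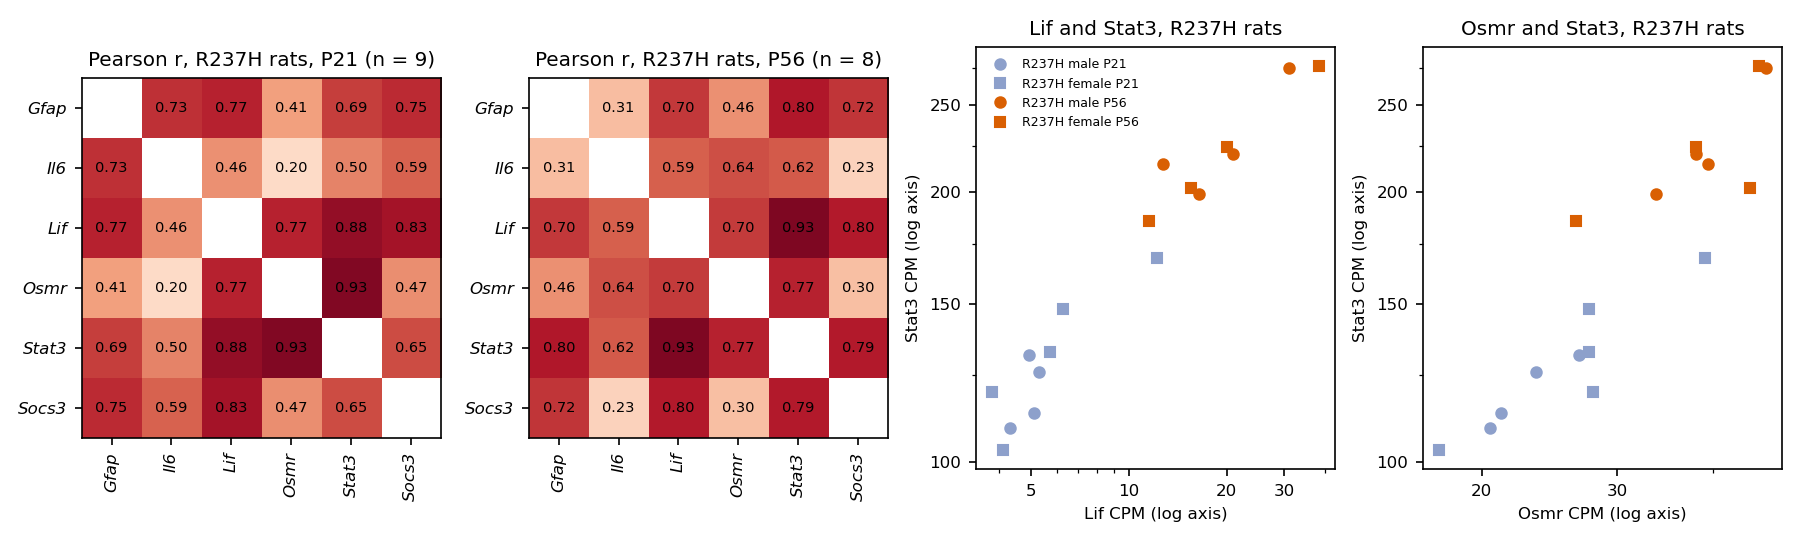
Left, Pearson r of log2 CPM between pairs of genes over R237H rats at P21 (n = 9) and P56 (n = 8); right, CPM (log axes) of Lif against Stat3 and of Osmr against Stat3 in the same rats, by sex and age. Lif and Stat3 have r = 0.877 at P21 and 0.933 at P56, and the 2 rats at the top right at P56 are s70-B and s70-C.

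For each gene, the 3 genes with the most similar levels over all 32 rats were listed among 3013 genes with a symbol and a mean of at least 1 CPM. These correlations are dominated by the difference between the genotypes and are given as a description. Lif was most like Stat3 (r = 0.985), then Megf10. Stat3 was most like Tgif1 (r = 0.991), Ctnna1 and Cnn3, and Osmr was most like Msn (r = 0.983), Cd44 and Il1rl1. Socs3 was most like Hmox1 (r = 0.989), Vim and Ier3. Il6 was most like Pctp (r = 0.964), Mtmr10 and Spp1, which encodes the secreted phosphoprotein osteopontin. Of the 5 genes only Lif had another of the 5 among its nearest 3, and the other 4 had none.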

How the data were processed

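Hippocampal RNA of 32 rats was sequenced as stranded, polyA-selected libraries. Per the labels and the study's methods, reads were base-called with bcl2fastq 2.20.0.422, trimmed with Skewer, aligned with STAR and summarised with RSEM, and edgeR was used for testing (other versions and the genome build are not given in the sources used here). The authors deposited RSEM expected counts, which are not normalized, and TPM values from the same estimates, which keep no depth. A read fitting several genes is split among them, and 5.68% of the deposited expected counts were not whole, so they were rounded. Genes were tested with edgeR 4.0.16 in R 4.3.3 (filterByExpr, TMM factors, quasi-likelihood test, Benjamini-Hochberg FDR under 0.01 over all genes tested), R237H against WT within sex and age. The SE is the size of the estimate over the square root of F. Interactions used the 16 rats of a sex or age. Correlations used log2 CPM with a prior count of 0.5 and exact permutation of rats, two-sided. Tables and permutation tests were made in Python (3.11.15) using scipy 1.17.1, numpy 2.4.6 and pandas 2.3.3, and figures using matplotlib 3.10.9.

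Depth was 21580397 to 55544871 expected counts per rat. The genes and lists were chosen with earlier results of these data known. Genes named are the 5 genes, all ligand and receptor genes with an identifier, the 4 genes of each other list with the smallest FDR in males at P56, every listed gene that was decreased, the 3 genes most like each gene, and Gfap. The endothelial list had no member with an identifier. Some genes under this rule, and 1 marker list, are not reported here. Each count was also taken with DESeq2 1.42.0, with edgeR's likelihood-ratio test, without the filter, with RLE factors, with all 32 rats fitted at once, at an FDR under 0.05, with limma 3.58.1 on log2(TPM + 0.1) and log2(TPM + 1) for genes with a mean TPM of at least 0.1, with a replicate block for the number in the title, and without each rat in turn. Fits without the 6 most abundant genes, the rats over 100 TPM of Ttr, or each rat of the age interactions were added after seeing the data. The method was tested on simulated data. Littermates are separate animals. The study's protein, histology and behavior data were not analysed here.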

Additional observations from a re-analysis of the deposited data

Results flagged for a closer look

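The effect of R237H differed between the ages in males for 4 of the 5 genes by a test of the interaction itself. The log2 difference (P56 minus P21) was 3.67 for Il6, 1.89 for Lif, 0.996 for Osmr and 0.93 for Stat3. Each age was its own collection of rats, from which age cannot be told apart. A rat far from the others of its group was looked for in 35 combinations of gene and group with 4 or 5 rats, and 0 were found, where chance gives about 1 in 20. In groups this small the rule flags only a very wide gap. R1789B was not flagged for Lif, although it had 12.2 CPM against 3.8 to 6.26 CPM in the other R237H females at P21.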

How the results depend on the processing

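The 5 genes kept their direction in 255 of 255 alternative values of the R237H effect, most of them fits without 1 rat. Leaving out a rat could hardly turn the sign where every R237H rat was above every WT rat. These values did not include the likelihood-ratio test, DESeq2, the fits without the filter or the fit of all 32 rats. The number increased stayed at 5 in males and females at P56 and males at P21 under every alternative run. In females at P21 the main count of 4 became 2 with a replicate block for the number in the title (2.61% of genes tested were increased in that fit), where Lif (3.05, FDR 0.0153) and Stat3 (1.36, FDR 0.0105) lost their calls, and pathway genes increased went from 22 to 14. Deviations from the group mean were correlated between R237H and WT rats of the same sex and age. Outside males at P21, r ran from -0.0706 to 0.5492 for same-numbered pairs and from -0.3837 to 0.3286 for differently numbered pairs. The highest values, 0.5492 and 0.5006, were those of same-numbered pairs. Whether rats with the same number share an effect was not tested, and the block is given as an alternative to the main fit. No paired analysis was possible for males at P21 because all rats share 1 number. Leaving out each rat gave 29 to 33 and 30 to 33 pathway genes increased at P56 in males and females, and 31 to 35 and 18 to 25 at P21. Pathway genes decreased, 1 or 0, became 0 in males at P56 on log2(TPM + 0.1), on log2(TPM + 1), with the block and without the rats over 100 TPM of Ttr, 0 in females at P56 on log2(TPM + 0.1), and 0 in males at P21 with all 32 rats. In females at P21 it became 1 by the likelihood-ratio test, DESeq2 and an FDR under 0.05, and was 0 to 1 with each rat left out (1 without WT R1797C). Genes with an age interaction in males were 3 to 4 with each rat left out. In females 0 became 2 by the likelihood-ratio test and 1 with all 32 rats, and was 0 to 1 with each rat left out. The median r fell to 0.292 in R237H rats at P56 without the rats over 100 TPM of Ttr and to 0.37 at P21 without the 2 farthest rats. In WT rats at P56 it changed sign, to -0.043 centred within sex and to -0.10 without the 2 farthest rats, and was 0.485 on log2 TPM. The cause of these changes was not tested. Expected counts in WT rats at P56 were low for Il6 (2 to 19), Osm (6 to 19) and Fgg (0 to 7).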
